A study of Mus musculus with 16 samples.

Results

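Otx2, Zic2, Pou3f1, Sox3, Fgf5 and Utf1 are 6 genes known as markers or regulators of formative and primed pluripotency. They were chosen by name, with earlier results of these data known. The estimated counts of all their transcripts were summed per gene, as for the 35968 genes of the series. All 6 passed the filter on low counts and were among the 18944 genes tested. Fgf5 did so only through the groups in which it was higher, as given below. Messenger RNA was sequenced from mouse embryonic stem cells (ESCs), the pluripotent cells derived from the blastocyst. The cells either carried a knockout (KO) of Dgcr8, whose protein guides the nuclease Drosha to primary microRNA transcripts, or were wild type (WT). Each genotype was grown under mTOR inhibition or in normal ESC culture. The kinase mTOR links cell growth to the supply of nutrients, and blocking it puts ESCs into a slowed state like embryonic diapause, called paused here. The groups were KO paused, KO normal, WT paused and WT normal, with 4 libraries each, 16 in all, taken at day 2 from 800000 cells per sample. The labels name no inhibitor dose, medium, deleted part of Dgcr8 or number of clones, and whether replicates come from different cultures is not in them. The p-values therefore reflect the spread among these 16 libraries, part or all of which may be technical.

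Pluripotent cells pass through a naive state, a formative state in which they gain the capacity to form all lineages, and a primed state close to the epiblast after implantation. OTX2 is a homeodomain transcription factor that directs OCT4 to new enhancers as cells leave the naive state. POU3F1 (OCT6), SOX3 and ZIC2 are transcription factors of the POU, SOX and zinc finger families that are switched on or raised on the way to the epiblast. FGF5 is a secreted growth factor whose mRNA is a classical marker of the epiblast after implantation. UTF1 is a chromatin protein of pluripotent cells and the epiblast that binds genes with bivalent histone marks. In ESCs, Dgcr8 is required for microRNAs of the miR-290 and miR-302 clusters, which promote cycling, and for the let-7 family, which accumulates on differentiation.

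The libraries held 88377380 to 116646028 estimated counts. Levels are given as CPM, counts scaled to library size with TMM factors, and the mean ± SD is over 4 libraries. CPM is used between groups because the processed pseudogene Gm19220 took 12600 to 155000 TPM (transcript abundance scaled to length and library) in single libraries, which lowers the TPM of all other genes. TPM, which corrects for length, is used only to set genes side by side within a group and for the shares of a gene's transcripts. In 3 of the 4 groups the libraries formed pairs, replicates 1 and 2 on one side and 3 and 4 on the other. The root mean square log2 difference was 0.216 to 0.272 across these pairs and 0.0742 to 0.12 within them in WT normal culture, 0.126 to 0.157 and 0.0967 to 0.103 in KO normal culture and 0.123 to 0.137 and 0.0659 to 0.0837 in WT paused culture. In KO paused cells it was 0.086 to 0.14 across and 0.115 to 0.117 within. Values within replicates 1 and 2 and within replicates 3 and 4 are therefore given beside the results. Dgcr8 mRNA was at 181 ± 7.33 CPM in KO paused, 250 ± 4.14 in KO normal, 53.9 ± 2.43 in WT paused and 47.3 ± 1.81 in WT normal cells, which checks nothing about the genotype because the deleted part is not named. The Y-linked genes Ddx3y, Eif2s3y and Uty had 0.0771 to 0.618 CPM in the 8 KO and 31.3 to 107 CPM in the 8 WT libraries. The lines thus differ in more than Dgcr8, and genotype and line cannot be told apart. In bulk RNA, fewer cells that express a gene and less of its RNA per cell cannot be told apart either.

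Because Dgcr8 is needed to make microRNAs, the sequences of the miR-290 and miR-302 family are shown, with the seed (bases 2 to 8) in capitals. MicroRNAs were not measured in these libraries. The sequences are from RefSeq, build GRCm38.p6.
miR-291a-3p (chromosome 7): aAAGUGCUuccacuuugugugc
miR-294-3p (chromosome 7): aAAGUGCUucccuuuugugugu
miR-295-3p (chromosome 7): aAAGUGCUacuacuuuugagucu
miR-302b-3p (chromosome 3): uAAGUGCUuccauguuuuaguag
miR-302d-3p (chromosome 3): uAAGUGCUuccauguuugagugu
These 5 share the seed AAGUGCU, whose match in a messenger RNA is AGCACTT. The longest annotated 3′ UTR of each of the 6 genes, from 122 bases in Utf1 to 1599 bases in Pou3f1, held 0 matches to AGCACTT and 0 to GCACTT, the match to bases 2 to 7. Over 20990 genes with a 3′ UTR, 14.7% held AGCACTT and 28.5% held GCACTT, both on the sense strand. For the let-7 family, with the seed GAGGUAG, 0 of the 6 held the match CTACCTC, which 9.02% of genes hold. The 6-base match TACCTC, held by 23.4% of genes, was found only in Fgf5 among the 6 genes, at 2 places shown here in capitals beside let-7a.
let-7a-5p (chromosome 13): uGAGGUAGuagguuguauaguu
Fgf5 3′ UTR, match at base 418 (chromosome 5): ttttttaaggTACCTCagcattgagc
Fgf5 3′ UTR, match at base 590 (chromosome 5): attttagctaTACCTCaagtcgtata
A match is a description of letters and not a site of action, and no match says only that these letters are not in these windows.

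In KO cells pausing raised Otx2 and Zic2 and lowered Pou3f1, Sox3 and Utf1. In WT cells it raised Otx2, Pou3f1 and, by little, Zic2, and lowered none of the 6 genes. The responses of Pou3f1, Sox3, Zic2 and Utf1 differed between the genotypes, and those of Otx2 and Fgf5 did not pass the test of the difference. The edgeR quasi-likelihood test, at a Benjamini-Hochberg adjusted p under 0.05, called 2 of the 6 genes higher and 3 lower in KO paused cells, where it called 67.2% of all genes, 34.4% higher and 32.8% lower. In WT paused cells it called 3 higher and 0 lower, where it called 60.7% of all genes, 33.3% higher and 27.5% lower. For the difference of the responses it called 1 positive and 3 negative, where it called 41.9% of all genes, 17.4% positive and 24.5% negative. The KO paused and KO normal libraries did not overlap for 5 of the 6 genes, where 64.0% of all genes did not, and the WT paused and WT normal libraries for 3 of the 6, where 54.0% did not. The median log2 fold change of the 6 genes was −0.59 in KO and 0.39 in WT cells, and that of all genes was 0.02 and 0.04. With 6 genes and most genes called, these counts are no result about the genes as a set, and sizes and directions are given gene by gene.

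**Figure D1:**
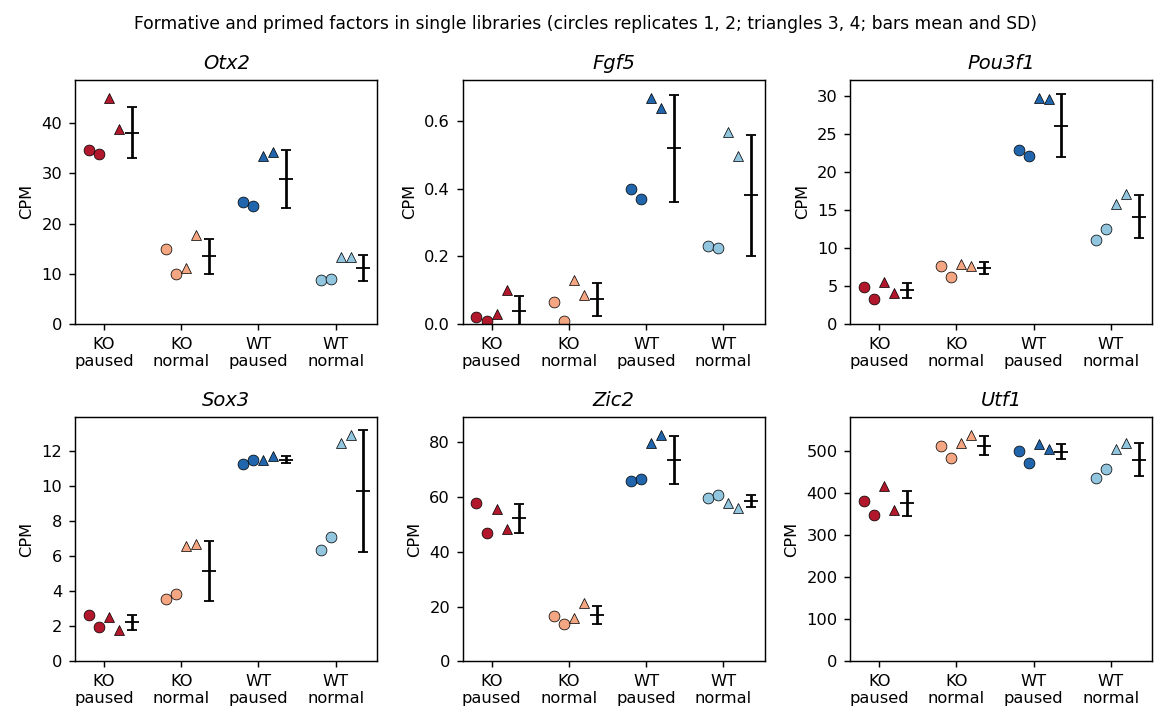
CPM of the 6 genes in each of the 16 libraries, with KO paused, KO normal, WT paused and WT normal cells from left to right, circles for replicates 1 and 2, triangles for replicates 3 and 4, and bars for the mean and SD of 4 libraries. Otx2 is high in both paused groups, whereas Pou3f1 and Sox3 are lowest in KO paused cells and Zic2 is lowest in KO normal cells.

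Levels of different genes were set side by side by TPM within a group. Utf1 was the most abundant, at 562 TPM in KO paused, 671 in KO normal, 718 in WT paused and 577 in WT normal cells, above 98.8% to 99.1% of the 16945 protein-coding genes tested. Fgf5 was the least abundant, at 0.0275, 0.0443, 0.388 and 0.214 TPM in the same order, above 2.3% to 17.2% of these genes. Between these extremes Zic2 had 37.1, 10.4, 50.5 and 33.4 TPM and Otx2 35.6, 10.7, 25.9 and 8.29 TPM. Pou3f1 had 1.86, 2.71, 10.6 and 4.77 TPM and Sox3 1.84, 3.74, 9.13 and 6.41 TPM. The formative and primed genes thus span from one of the most abundant mRNAs of these cells to one near the limit of detection. Markers of ESC identity, Pou5f1, Sox2, Nanog, Esrrb, Zfp42 and Klf4, summed to 5210 to 5340 CPM in KO paused, 4250 to 4350 in KO normal, 4200 to 4400 in WT paused and 3830 to 3960 in WT normal libraries.

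Otx2 (ENSMUSG00000021848.16, chromosome 14, 48657677 to 48673819, minus strand, GRCm38) was higher in paused cells of both genotypes. Its level was 34.6, 33.9, 45.0 and 38.8 CPM in KO paused libraries (38.1 ± 5.12), against 15, 10, 11.2 and 17.6 CPM in KO normal libraries (13.5 ± 3.51). In WT paused libraries it was 24.2, 23.6, 33.4 and 34.3 CPM (28.9 ± 5.76), against 8.74, 8.96, 13.3 and 13.4 CPM in WT normal libraries (11.1 ± 2.59). All 8 paused libraries lay above all 8 normal ones, and the 2 genotypes overlapped in each culture. On the log2 scale pausing changed it by 1.50 ± 0.20 (SE) in KO cells, a 2.83-fold rise (edgeR's quasi-likelihood test with Benjamini-Hochberg adjustment, adjusted p = 1.22e-05), and 1.38 ± 0.21 in WT cells, a 2.61-fold rise (adjusted p = 3.5e-05). The responses differed by 0.12 ± 0.29 (edgeR adjusted p = 0.771), which does not show that they are equal. In KO cells the response was 1.45 within replicates 1 and 2 and 1.55 within replicates 3 and 4, and in WT cells 1.43 and 1.34. The difference of KO from WT cells did not pass the threshold, with 0.40 ± 0.20 when paused (edgeR adjusted p = 0.0911) and 0.28 ± 0.21 in normal culture (edgeR adjusted p = 0.247). The paused difference passed with a replicate block (0.41, edgeR adjusted p = 0.0145) and within replicates 1 and 2 (0.52, edgeR adjusted p = 0.0379), and was 0.31 within replicates 3 and 4 (edgeR adjusted p = 0.264).

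Otx2 lies in a region of chromosome 14 where KO cells had more mRNA of most genes. The 79 other protein-coding genes tested within 5 Mb had a median log2 fold change, KO over WT, of 0.71 in paused and 0.70 in normal culture, against 0.23 and 0.24 over the 631 such genes of the chromosome. The values of Otx2 itself, 0.40 and 0.28, are below these medians, and 30 neighbours in paused and 28 in normal culture lay lower than Otx2. The same neighbours had median responses to pausing of 0.11 in KO and −0.04 in WT cells, against 1.50 and 1.38 for Otx2. The annotation places Otx2os1, on the opposite strand, and Gm49154 over the Otx2 locus. Neither was analysed here, and since the strand setting of the counting is not given in the sources used here, reads of an antisense partner cannot be told apart from those of Otx2.

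Otx2 has 3 main annotated start regions, whose transcripts share exons. The bases before the first distal start, at 48667644, and before the proximal start are printed, 5′ to 3′ on the minus strand (RefSeq, GRCm38.p6). The other distal transcripts start at 48667508 to 48667518. No bases are printed for the middle start, since its window begins inside an exon. Capitals mark a TATAAA match.
Otx2 before the distal start (chr14:48667645-48667894): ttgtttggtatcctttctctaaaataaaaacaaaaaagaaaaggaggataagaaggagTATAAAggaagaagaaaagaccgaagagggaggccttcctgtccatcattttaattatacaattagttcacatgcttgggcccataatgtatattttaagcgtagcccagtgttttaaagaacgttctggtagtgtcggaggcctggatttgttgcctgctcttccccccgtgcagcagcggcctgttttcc
Otx2 before the proximal start (chr14:48662873-48662984): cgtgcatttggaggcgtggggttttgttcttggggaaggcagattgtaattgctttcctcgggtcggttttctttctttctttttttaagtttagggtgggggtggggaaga
The motifs searched on both strands were TAATCC, the core bound by OTX proteins, TATAAA, the TATA box, ATTTGCAT, the octamer of POU proteins, GGGCGG, the GC box, and CATTGT, the core of SOX sites. The distal window held 1 match, TATAAA, which 12.4% of 32851 promoter windows of 250 bases hold. The proximal window held none of the 5. It covers the 112 bases of its promoter window farthest from the RefSeq start. In this part of all promoter windows, 0.694% to 11.8% hold each motif. The transcript from the proximal start had 14.3 to 21.1 CPM in KO paused, 3.18 to 6.77 in KO normal, 9.73 to 14.9 in WT paused and 3.6 to 5.81 in WT normal libraries. It made up 46.9% ± 2.66 of the TPM of the gene in KO paused, 40.9% ± 4.59 in KO normal, 46.5% ± 1.63 in WT paused and 45.1% ± 3.13 in WT normal cells (SD, n = 4 each). The middle start made up 36.7% ± 2.34, 43.5% ± 1.54, 37.5% ± 1.54 and 39.4% ± 3.28 in the same order, and the 6 transcripts of the distal start 13.8%, 12.9%, 13.7% and 14.2%. The shares of the middle start did not overlap between KO paused (33.6% to 39.1%) and KO normal libraries (41.2% to 44.6%), and the shares of the proximal start overlapped in both genotypes. In CPM, each of the 3 regions had higher group means in paused cells, for the middle start 15.6 in KO paused, 6.58 in KO normal, 12.1 in WT paused and 4.85 in WT normal cells, and for the distal start 5.12, 1.66, 3.92 and 1.51. Levels and shares were estimated by the authors' program from reads that these transcripts share, and they were not tested.

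**Figure D2:**
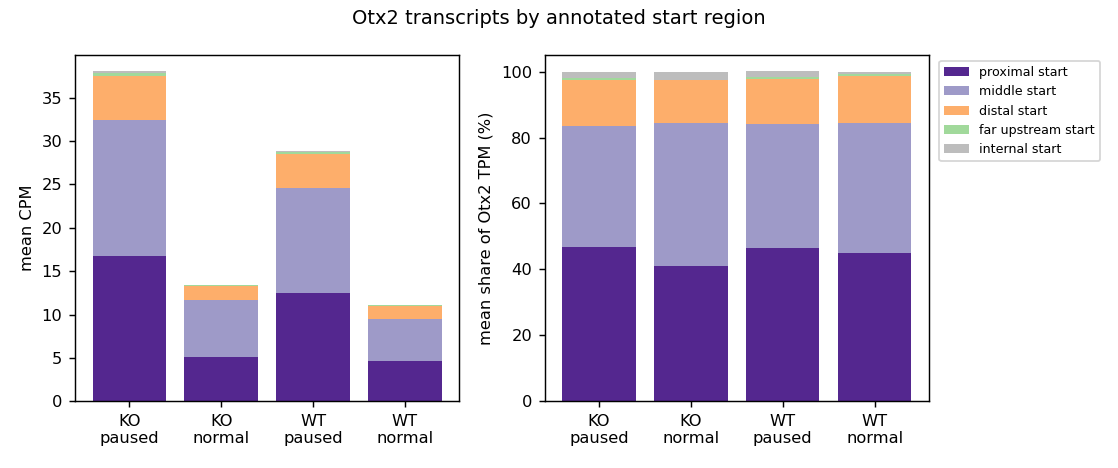
Mean CPM of Otx2 by annotated start region (left) and mean share of each region in the TPM of the gene in percent (right), over 4 libraries of KO paused, KO normal, WT paused and WT normal cells. The proximal start holds 40.9% to 46.9% of the group means, and all 3 main regions are taller in the paused groups.

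Zic2 (ENSMUSG00000061524.8, chromosome 14, 122475435 to 122479852, plus strand) was much lower in KO than in WT cells in normal culture. Pausing raised it in KO cells to a mean of 52.1 CPM, below the 58.4 CPM of WT normal cells, with ranges that overlapped. It had 57.5, 47.0, 55.5 and 48.4 CPM in KO paused libraries (52.1 ± 5.2), against 16.5, 13.8, 15.8 and 21.4 CPM in KO normal libraries (16.9 ± 3.22). In WT cells it had 65.7, 66.4, 79.7 and 82.4 CPM when paused (73.6 ± 8.75), against 59.7, 60.6, 57.7 and 55.8 CPM in normal culture (58.4 ± 2.16). The KO normal libraries lay below all 12 others, and only the KO paused and WT normal libraries overlapped. Pausing raised Zic2 by 1.63 ± 0.12 on the log2 scale in KO cells, 3.09-fold (edgeR adjusted p = 3.65e-09), and by 0.33 ± 0.11 in WT cells, 1.26-fold (edgeR adjusted p = 0.0162). The responses differed by 1.29 ± 0.16 (edgeR adjusted p = 1.12e-05), with 1.65 within replicates 1 and 2 and 0.98 within replicates 3 and 4.

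The rise of Zic2 in WT cells rested on part of the libraries. It was 0.14 within replicates 1 and 2 (edgeR adjusted p = 0.307) and 0.51 within replicates 3 and 4 (edgeR adjusted p = 0.0322). Without replicate 3 of WT normal culture it was 0.30 (edgeR adjusted p = 0.0502), and without replicate 4 of WT paused culture 0.27 (edgeR adjusted p = 0.0556). Between genotypes, Zic2 was lower in KO cells by −0.50 ± 0.11 when paused (edgeR adjusted p = 0.000901) and by −1.79 ± 0.12, or 3.46-fold, in normal culture (edgeR adjusted p = 1.1e-09). The 26 protein-coding neighbours within 5 Mb had a median of 0.13 when paused and 0.28 in normal culture. The nearest of them is Zic5, a paralog that shares the locus, whose lower coordinate lies 18.6 kb from that of Zic2. Zic5 was lower in KO cells by −0.79 ± 0.11 when paused and −1.48 ± 0.11 in normal culture. In KO cells it rose by 0.57 ± 0.11 with pausing.

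Pou3f1 (ENSMUSG00000090125.3, chromosome 4, 124656807 to 124660655, plus strand) moved in opposite directions in the 2 genotypes. It had 4.88, 3.27, 5.49 and 4.06 CPM in KO paused libraries (4.43 ± 0.968), against 7.65, 6.25, 7.96 and 7.66 CPM in KO normal libraries (7.38 ± 0.768). In WT libraries it had 23.0, 22.1, 29.8 and 29.6 CPM when paused (26.1 ± 4.15), against 11.1, 12.5, 15.8 and 17.1 CPM in normal culture (14.1 ± 2.79). The 4 groups did not overlap, in the order KO paused, KO normal, WT normal, WT paused from low to high. Pausing lowered Pou3f1 by −0.74 ± 0.17 in KO cells (edgeR adjusted p = 0.0012) and raised it by 0.89 ± 0.16 in WT cells (edgeR adjusted p = 0.000151). The difference of the responses was −1.63 ± 0.23 (edgeR adjusted p = 5.16e-05), with −1.72 within replicates 1 and 2 and −1.55 within replicates 3 and 4. KO cells had 5.92-fold less than WT cells when paused (log2 fold change −2.56 ± 0.17, edgeR adjusted p = 2.01e-09) and 1.92-fold less in normal culture (−0.94 ± 0.16, edgeR adjusted p = 9.88e-05). The median of its 113 protein-coding neighbours was −0.04 when paused and 0.13 in normal culture. Pou3f1 has a single exon, whose start overlaps the antisense gene Gm2164, not analysed here.

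Sox3 (ENSMUSG00000045179.9, chromosome X, 60891366 to 60893430, minus strand, a single exon) was lowest in KO paused cells. It had 2.63, 1.97, 2.54 and 1.79 CPM in KO paused libraries (2.23 ± 0.417), against 3.58, 3.82, 6.56 and 6.71 CPM in KO normal libraries (5.17 ± 1.7). In WT libraries it had 11.3, 11.5, 11.5 and 11.7 CPM when paused (11.5 ± 0.192), against 6.36, 7.11, 12.5 and 12.9 CPM in normal culture (9.71 ± 3.46). In normal culture of both genotypes replicates 1 and 2 were below replicates 3 and 4, and the KO normal and WT normal libraries overlapped. Pausing lowered Sox3 by −1.21 ± 0.26 in KO cells, 2.32-fold (edgeR adjusted p = 0.000834), with −0.70 within replicates 1 and 2 and −1.61 within replicates 3 and 4. In WT cells the change was 0.25 ± 0.24 (edgeR adjusted p = 0.404). Here the pairs of replicates went apart, with 0.76 within replicates 1 and 2 (edgeR adjusted p = 3.94e-05) and −0.13 within replicates 3 and 4 (edgeR adjusted p = 0.265).

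The genotype difference of Sox3 and of its response varied little between these pairs of replicates. The difference of the responses was −1.46 ± 0.36 (edgeR adjusted p = 0.00431), with −1.46 within replicates 1 and 2 and −1.47 within replicates 3 and 4. KO cells had 5.16-fold less than WT cells when paused (−2.37 ± 0.26, edgeR adjusted p = 1.27e-06) and 1.88-fold less in normal culture (−0.91 ± 0.25, edgeR adjusted p = 0.00445). Within replicates 1 and 2 these values were −2.32 and −0.86, and within replicates 3 and 4 they were −2.41 and −0.94. The 22 neighbours of Sox3 had a median of −0.26 when paused and −0.67 in normal culture, and the 602 protein-coding genes tested on the X chromosome −0.14 and −0.22. The Y-linked genes separate the same groups, and their part in the level of this X-linked gene cannot be told apart from genotype.

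Markers of other lineages were examined beside Pou3f1 and Sox3. The endoderm list was lower in KO cells as a whole, and the other lists were so in part or went both ways. Of all genes, 34.5% were called lower and 30.8% higher in KO cells when paused, and 34.1% in each direction in normal culture. With lists this short, the counts below are given beside these shares and without a test. The neuroectoderm markers Sox1, Pax6, Hes5, Neurog1 and Olig2 summed to 9.42 to 11.6 CPM in KO paused, 7.28 to 8.49 in KO normal, 17.7 to 19.8 in WT paused and 16.3 to 17.7 in WT normal libraries. Of these 5, Pax6 and Neurog1 were lower in KO cells in each culture and 3 were not called, and Pax6 had mean levels of 0.976, 1.19, 7.47 and 10.3 CPM in the same order. Neurog1 had 0.0447, 0.0445, 0.36 and 1.35 CPM and, like Fgf5, passed the filter only through the WT libraries. The endoderm markers Gata4, Gata6, Sox17, Foxa2 and Pdgfra summed to 4.18 to 5.5, 4.4 to 6.37, 10.5 to 20.1 and 13.4 to 21.9 CPM in the same order, and 5 of 5 were lower in KO cells in each culture. The mesoderm markers T, Mixl1, Mesp1, Tbx6 and Kdr summed to 8.36 to 8.91, 4.19 to 6.56, 15.7 to 21 and 3.66 to 6.38 CPM, with 2 higher and 3 lower in KO cells when paused and 2 higher and 1 lower in normal culture. Of the fibroblast markers Col1a1, Col1a2, Col3a1, Postn, Lum, Dcn and Thy1, 3 of 7 passed the filter, of which 1 was higher and 1 lower in KO cells when paused and 1 higher and 2 lower in normal culture. The 7 summed to 18.8 to 21.5, 31.3 to 34.9, 10.3 to 10.8 and 12.1 to 16.3 CPM, mostly from Thy1, and the others had group means of at most 1.88 CPM. These sums are small beside those of the ESC markers, and their part in the genotype differences of the 6 genes was not tested.

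Fgf5 (ENSMUSG00000029337.2, chromosome 5, 98254184 to 98277030, plus strand) was close to undetected in KO cells and low in WT cells. KO paused libraries held 2.2, 1.1, 3.1 and 10.4 estimated counts, 16.7 in sum, and KO normal libraries 6.2, 1.0, 13.4 and 8.3, 28.9 in sum. WT paused libraries held 39.6, 38.3, 68.3 and 60.7 estimated counts and WT normal libraries 22.3, 22.6, 54.4 and 42.0. In CPM this was 0.0399 ± 0.0419 in KO paused, 0.0727 ± 0.0498 in KO normal, 0.518 ± 0.157 in WT paused and 0.38 ± 0.177 in WT normal cells. All 8 KO libraries lay below all 8 WT libraries, while the 2 cultures overlapped in each genotype. Fgf5 passed the filter, with its minimum count of 10, only through the WT libraries. The genotype tests of Fgf5 thus concern a gene kept for its level in WT cells. KO cells had 13.1-fold less than WT cells when paused (−3.71 ± 0.56, edgeR adjusted p = 1.3e-05) and 5.15-fold less in normal culture (−2.36 ± 0.52, edgeR adjusted p = 0.000626). Without replicate 4 of KO paused cells, which held most of that group's counts, the paused difference was −4.69.

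At these counts the response of Fgf5 to pausing did not pass the threshold in either genotype. It was −0.89 ± 0.73 in KO (edgeR adjusted p = 0.292) and 0.46 ± 0.41 in WT cells (edgeR adjusted p = 0.352), and the responses differed by −1.35 ± 0.83 (edgeR adjusted p = 0.208). Leaving out single libraries gave −1.88 to −0.44 in KO and 0.24 to 0.70 in WT cells. Within replicates 1 and 2 the response was −1.31 in KO and 0.75 in WT cells, and within replicates 3 and 4 −0.75 and 0.29. Without replicate 4 of KO paused cells the difference of the responses was −2.33 and passed the threshold. The 44 protein-coding neighbours of Fgf5 within 5 Mb had a median, KO over WT, of −0.70 when paused and −0.51 in normal culture. Of these, 11 genes that lie 2.51 to 4.33 Mb away were below −4 in both cultures, and 9 of the 11 carry names of predicted gene models. Some of the 11 had identical values, so they may not be separate measurements, and their levels are not given here. The other 33 had a median of −0.28 and −0.24. The nearest neighbour, 87.0 kb away between lower coordinates, is Prdm8, a member of the PRDM family of chromatin and transcription regulators. It was lower in KO cells by −2.54 ± 0.43 when paused (edgeR adjusted p = 4.46e-05) and by −3.33 ± 0.54 in normal culture (edgeR adjusted p = 2.2e-05).

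**Figure D3:**
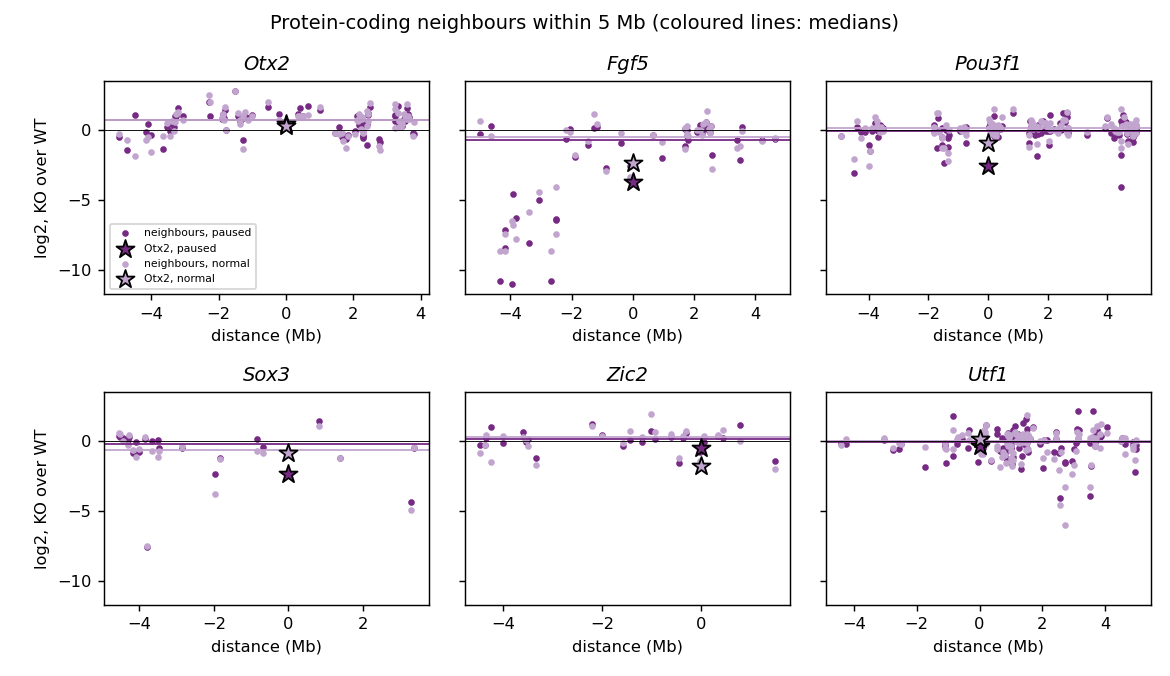
Log2 fold change, KO over WT, of protein-coding neighbours within 5 Mb of each of the 6 genes, against the distance from the gene in Mb, with dark points for paused and light points for normal culture, stars for the gene itself and coloured lines for the medians of the neighbours. Otx2, at 0.40 and 0.28, lies above 0 and below the medians of its neighbours of 0.71 and 0.70, whereas Pou3f1 and Zic2 lie below 0 and their neighbours have medians between −0.04 and 0.28.

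Utf1 (ENSMUSG00000047751.9, chromosome 7, 139943789 to 139945112, plus strand) was abundant in all groups and lowest in KO paused cells. It had 380.0, 348, 416 and 360.3 CPM in KO paused libraries (376 ± 29.7), against 511, 482, 519 and 537 CPM in KO normal libraries (512 ± 23). In WT libraries it had 499, 472, 516 and 505 CPM when paused (498 ± 18.7), against 434, 457, 505 and 518 CPM in normal culture (479 ± 39.7). The KO paused libraries lay below the 12 others, and the 3 other groups overlapped. Pausing lowered Utf1 by −0.45 ± 0.06 in KO cells, 1.36-fold (edgeR adjusted p = 2.06e-06), and the change in WT cells was 0.06 ± 0.06 (edgeR adjusted p = 0.418). The responses differed by −0.50 ± 0.08 (edgeR adjusted p = 0.000102), with −0.58 within replicates 1 and 2 and −0.43 within replicates 3 and 4. KO cells differed from WT cells by −0.41 ± 0.06 when paused (edgeR adjusted p = 7.15e-06) and by 0.10 ± 0.06 in normal culture (edgeR adjusted p = 0.147).

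KO and WT cells were then compared across the 6 genes within each culture. In paused cells the edgeR test called 0 higher and 5 lower, Fgf5, Pou3f1, Sox3, Zic2 and Utf1, where it called 65.4% of all genes, 30.8% higher and 34.5% lower. In normal culture it called 0 higher and 4 lower, Fgf5, Zic2, Pou3f1 and Sox3, where it called 68.2% of all genes, 34.1% higher and 34.1% lower. Fgf5 is in both counts although it passed the filter only through the WT libraries. The median log2 fold change of the 6 genes was −1.43 when paused and −0.92 in normal culture, and that of all genes was −0.03 in both. The libraries of the genotypes did not overlap for 5 of the 6 genes when paused, where 63.4% of all genes did not overlap, and for 3 of the 6 in normal culture, where 60.5% did not. Comparisons of pausing and of genotype share libraries, so their values are set side by side and not related to each other.

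**Figure D4:**
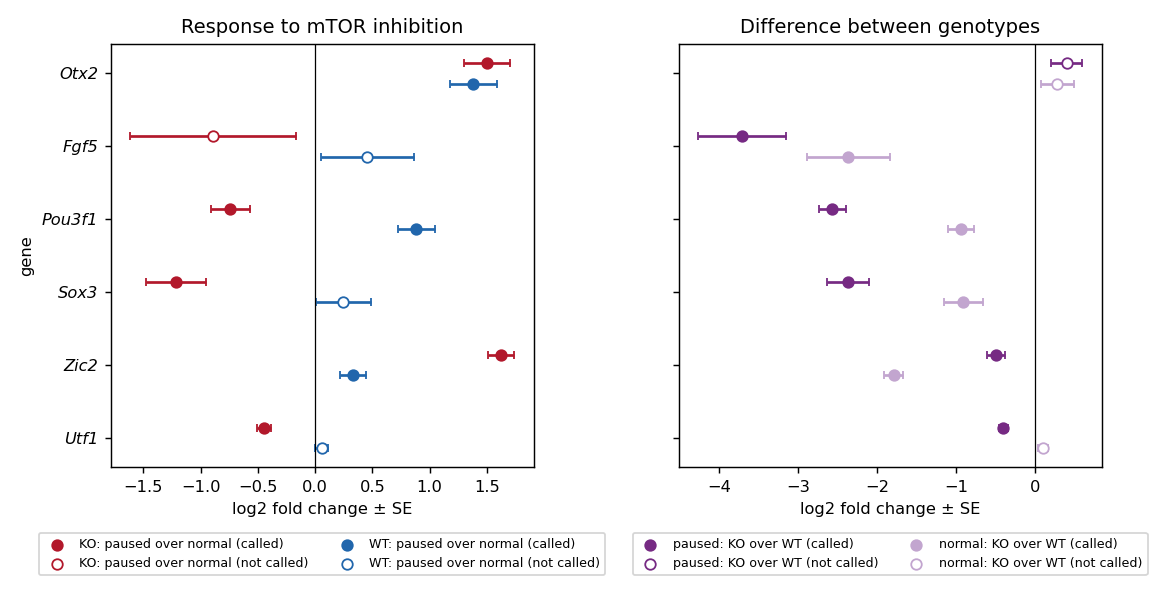
Log2 fold changes of the 6 genes with SE from the fit over 16 libraries, for pausing in KO and WT cells (left) and for KO over WT in paused and normal culture (right), filled where the adjusted p is under 0.05. Otx2 rises by 1.50 and 1.38 with pausing, Pou3f1 lies on opposite sides of 0 in the genotypes, and 5 genes are lower in KO paused than in WT paused cells.

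The 19 other formative or primed genes examined were Dnmt3a, Dnmt3b, Dnmt3l, Lef1, Tcf15, Foxd3, Sall2, Grhl2, Etv4, Etv5, Zic5, Fgf15, Fgf8, Cdh2, Sox4, Sox11, Tead2, Pim2 and Wnt8a, and all were tested. This list and the other gene lists were drawn up with earlier results of these data known. Their counts beside the shares of all genes are therefore a description and no independent support. In KO paused against WT paused cells 17 were lower and 1 was higher, where 34.5% of all genes were lower and 30.8% higher, and the median log2 fold change was −1.20. The largest falls were those of Lef1, a nuclear effector of Wnt signalling (−3.91 ± 0.27), the ligand Wnt8a (−3.43 ± 0.24) and the de novo DNA methyltransferase Dnmt3b (−2.53 ± 0.14), and the zinc finger gene Sall2 was higher (0.96 ± 0.09). The ETS factor Etv5, at −0.08, was the gene not called. In normal culture 10 were lower and 4 higher, where 34.1% of all genes were called in each direction, with a median of −1.20. The falls were led by Wnt8a (−4.63 ± 0.24), Dnmt3b (−2.42 ± 0.14) and Dnmt3l, the cofactor of these methyltransferases (−2.35 ± 0.09). Wnt8a was near the floor in KO cells, at 0.102 CPM when paused and 0.0852 in normal culture, against 1.11 and 2.14 CPM in WT cells. Its genotype differences thus rest mostly on its level in WT cells. Tcf15, a bHLH factor of formative cells, was higher (1.21 ± 0.07), as were Sall2 (0.78 ± 0.09) and the TEAD factor Tead2 (0.47).

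In KO cells pausing lowered 9 of these 19 genes and raised 4, where it lowered 32.8% and raised 34.4% of all genes, with a median of −0.06. Lef1 fell by 2.04 ± 0.27, Dnmt3a by 1.31 ± 0.07 and the ligand Fgf8 by 1.20 ± 0.29 on the log2 scale, and Dnmt3l (0.86 ± 0.09), the kinase Pim2 (0.80) and Zic5 (0.57 ± 0.11) rose. Fgf8 was near the floor, at group means of at most 0.383 CPM. In WT cells pausing raised 7 and lowered 2, where it raised 33.3% and lowered 27.5% of all genes, with a median of 0.05. The rises were led by the SOX factor Sox4 (1.23 ± 0.13), Tcf15 (0.71 ± 0.07) and the epithelial factor Grhl2 (0.71), and Wnt8a (−0.94 ± 0.17) and Sall2 (−0.50 ± 0.09) fell. The difference of the responses was negative for 9 and positive for 4 (24.5% and 17.4% of all genes), with Lef1 (−2.19 ± 0.35), Tcf15 (−1.55 ± 0.10) and Dnmt3a (−1.30 ± 0.10) at one end and Wnt8a (1.20 ± 0.38), Dnmt3l (1.00 ± 0.13) and Pim2 (0.88) at the other. The value of Wnt8a includes KO levels near the floor. As Pou3f1 did, Tcf15 (−0.84 and 0.71), Etv4 (−0.89 and 0.33) and Tead2 (−0.76 and 0.16) fell in KO and rose in WT paused cells, a pattern for which these genes were picked after their values were seen.

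**Figure D5:**
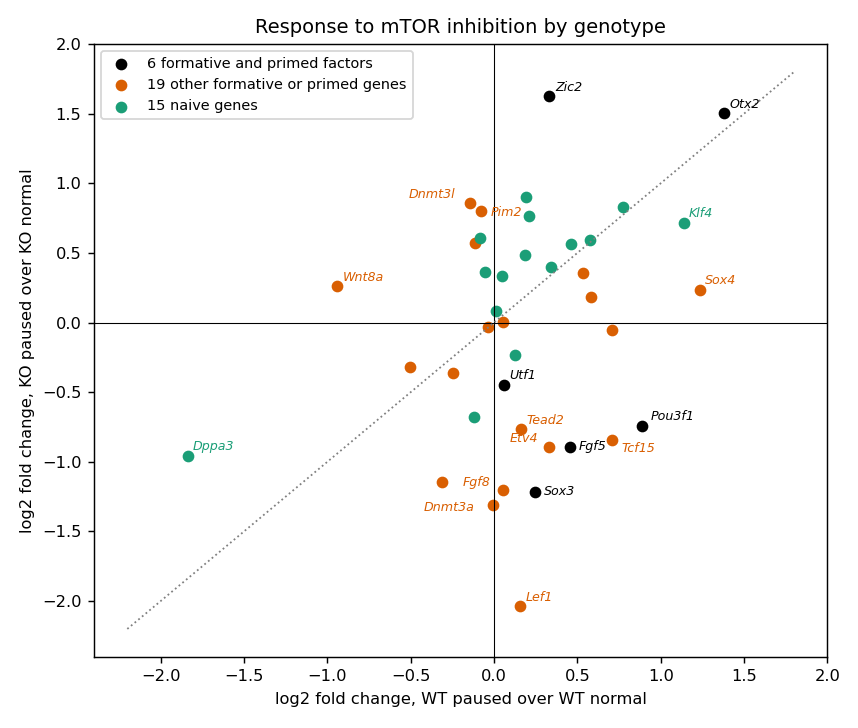
Log2 fold change of paused over normal KO cells (vertical axis) against that of paused over normal WT cells (horizontal axis) for the 6 genes (black), 19 other formative or primed genes (orange) and 15 naive genes (green), with a dotted line where both are equal. Otx2 lies near the line at 1.50 and 1.38, Zic2 lies far above it, and Pou3f1, Sox3, Fgf5 and Utf1 lie below it.

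Of 15 naive pluripotency genes, pausing raised 12 and lowered 3 in KO cells, with a median of 0.49, where it raised 34.4% and lowered 32.8% of all genes. It raised 9 and lowered 1 in WT cells, with a median of 0.19, where it raised 33.3% and lowered 27.5% of all genes. In KO cells Nr0b1, a nuclear receptor that lacks a DNA-binding domain (0.90), the T-box factor Tbx3 (0.83) and Tcl1, an AKT coactivator (0.76), rose most, and Dppa3 (−0.96), Sox15 (−0.68) and Klf5 (−0.24) fell. Dppa3 was near the floor in KO cells, at 0.206 CPM when paused and 0.405 in normal culture. In WT cells Klf4 (1.14), Tbx3 (0.78) and Prdm14 (0.58) rose most and the maternal-effect gene Dppa3 (−1.84) fell. Compared with WT cells, KO cells had 9 higher and 4 lower when paused (median 0.40), where 30.8% of all genes were higher and 34.5% lower, and 8 higher and 6 lower in normal culture (median 0.30), where 34.1% were called in each direction. Of the core factors, Pou5f1 was lower in KO cells by −0.26 when paused and −0.34 in normal culture, Sall4 was lower by −0.23 when paused and not called in normal culture (−0.07), and Sox2 was higher by 0.36 in each.

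Paralogs of the transcription factors were examined next, of which Zic5 is also among the 19 genes. Of 10 listed, 9 were tested, since Zic4 did not pass the filter. Pou3f2, Pou3f4, Crx, Otx1 and Zic1 had group means of at most 0.931 CPM, so their changes rest on low counts. Pou3f2 had 0.15 CPM in KO paused and 0.054 in KO normal cells. Pausing raised 5 and lowered 0 in KO cells, with a median of 0.51, where it called 67.2% of all genes, and raised 4 and lowered 0 in WT cells, with a median of 0.39, where it called 60.7%. In KO cells the POU gene Pou3f2 (1.46 ± 0.44), the homeodomain gene Crx (0.97 ± 0.25) and Zic5 (0.57 ± 0.11) rose most, and in WT cells Otx1 (1.12 ± 0.21), Sox1 (1.06 ± 0.15) and Zic1 (0.84 ± 0.30). KO cells had 4 lower and 1 higher than WT cells in each culture, where 65.4% of all genes were called when paused and 68.2% in normal culture. The lower genes were led by Otx1 (−1.15 ± 0.20), Pou3f2 (−1.04 ± 0.34) and Zic1 (−1.02 ± 0.30) when paused and by Pou3f2 (−2.51 ± 0.41), Zic5 (−1.48 ± 0.11) and Pou3f4 (−0.82 ± 0.25) in normal culture, and the higher gene was Sox2 in both.

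Of 8 other genes for FGF ligands and receptors, among them Fgf8 and Fgf15 of the 19 genes and Fgf4 of the naive genes, KO cells had 7 lower and 0 higher than WT cells when paused, with a median of −0.93, where 34.5% of all genes were lower and 30.8% higher. The largest falls were those of the ligand Fgf15 (−2.22 ± 0.19) and the receptors Fgfr2 (−1.44 ± 0.15) and Fgfr3 (−1.12 ± 0.18). In normal culture 3 were lower, Fgfr2 (−2.65 ± 0.15), Fgf15 (−1.39 ± 0.18) and the ligand Fgf4 (−0.38 ± 0.04), and 0 higher, where 34.1% of all genes were called in each direction. Pausing lowered 5 and raised 2 in KO cells, with Fgfr3 at −2.17 ± 0.17, Fgfr4 at −1.31 ± 0.13 and Fgf8 at −1.20 ± 0.29, against 3 lowered and 2 raised in WT cells, with Fgfr2 at −1.53 ± 0.14, Fgfr3 at −0.78 ± 0.16 and Fgfr4 at −0.43 ± 0.12. The difference of the responses was negative for 6 and positive for 2 of the 8, where it was negative for 24.5% and positive for 17.4% of all genes, and pausing called 67.2% of all genes in KO and 60.7% in WT cells.

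The genes whose log2 CPM followed each of the 6 most closely over the 16 libraries were sought among 11277 protein-coding genes whose log2 CPM averaged 1 or more, without predicted gene models and Rik names. For Otx2 they were Acss1 (Pearson r = 0.98), Ezh1 (0.97) and Ube2q1 (0.97), and for Zic2 they were Nr0b1 (0.98), Mtx3 (0.98) and Zfp978 (0.97). For Pou3f1 they were Nlrc4 (0.99), Hectd3 (0.98) and Enpp3 (0.98), for Sox3 Rpl5, Mov10 and E2f8 (0.97 each), for Fgf5 Ptpn13, Plaur and Scfd2 (0.94 each) and for Utf1 E2f4 (0.98), Csrp2 (0.97) and Gtf2h3 (0.96). Among the 6 genes, Pou3f1 and Sox3 (r = 0.94) and Pou3f1 and Fgf5 (r = 0.91) were most alike, and Otx2 and Utf1 least (r = −0.46). The libraries fall into 4 groups and share their scaling, so these values largely follow the group means and are given without a test.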

How the data were processed

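Poly(A)-selected RNA of mouse ESCs, 1 µg of RNA as input, was sequenced in 16 libraries. The submitters' processing notes name kallisto and the build GRCm38. Its version and strand setting are not given in the sources used here. The authors deposited estimated counts of kallisto for each transcript, beside its TPM and effective length, per the file headers. Of 118489 transcripts, 116728 were matched to GENCODE M21, and 1761 without a match, with 0.656% to 0.712% of a library's counts, were left out. Estimated counts were summed over 35968 genes and rounded. Genes were kept with filterByExpr at a minimum count of 10 (18944 genes) and scaled by TMM (0.933 to 1.07). All genes were tested with edgeR 4.0.16 in R 4.3.3 (robust quasi-likelihood F test, two-sided, 1 mean per group, biological coefficient of variation 0.0852, Benjamini-Hochberg adjustment over 18944 genes in each of 5 contrasts, threshold 0.05). The SE was derived from the log2 fold change and its F statistic, and CPM use TMM-scaled library sizes. Distances between genes are those between their lower coordinates and not the gap between them. Alternatives were DESeq2 1.42.0, RLE scaling, no filter, length-scaled TPM counts (from the effective lengths), protein-coding transcripts only, only the groups compared, a replicate block, replicates 1 and 2 or 3 and 4 only, and leaving out each library. The fit was tested on simulated data.

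The 6 genes and all gene lists were chosen with earlier results of these data known, and some genes of the lists are not reported here. Beside the 6 genes, the text names per list and contrast at most 3 genes with the largest rise and 3 with the largest fall past the threshold, and for each of the 6 the 3 genes with the highest correlation. Etv4, Tead2 and Etv5, the fall of Tcf15 in KO paused cells, the core factors and the lineage markers stand outside this rule and were named after their values were seen. Replicate numbers were not used to pair the samples in the main fit, since in no comparison did every same-numbered pair of deviations correlate above 0.1. This rule does not show that libraries of different groups are independent of each other.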

Additional observations from a re-analysis of the deposited data

Results flagged for a closer look

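The response to pausing differed between KO and WT cells for 4 of the 6 genes by the interaction term of edgeR's quasi-likelihood test. The same term was called for 41.9% of all genes, so the count of 4 is no result about the genes as a set. The log2 response in KO minus that in WT cells was −1.63 for Pou3f1 (adjusted p = 5.16e-05), which was lower in 4 of 4 KO paused libraries than in all KO normal ones and higher in 4 of 4 WT paused libraries than in all WT normal ones. It was −1.46 for Sox3 (adjusted p = 0.00431), 1.29 for Zic2 (adjusted p = 1.12e-05) and −0.50 for Utf1 (adjusted p = 0.000102). For these 3 genes the 4 KO paused libraries also lay apart from the 4 KO normal ones. The KO paused and KO normal libraries lay apart for 64.0% of all genes, and the WT paused and WT normal libraries for 54.0%. No library stood apart from its group by Dixon's criterion in any of the 24 sets of 4 libraries (6 genes in 4 groups).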

How the results depend on the processing

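Of 551 recomputed values of single genes, 540 kept their direction and their side of the threshold, and all 92 recomputed counts of called genes stayed within 1.5 times the reported count. The exceptions were as follows. Within replicates 1 and 2 only, the WT response of Sox3 passed (0.76), that of Zic2 no longer passed (0.14), and Utf1 in normal culture (KO over WT, 0.16) and Otx2 in paused culture (0.52) passed. Within replicates 3 and 4 only, the WT responses of Sox3 (−0.13) and Utf1 (−0.0104) changed sign. Replicate numbers were not used to pair the samples in the main fit. With a replicate block Otx2 in paused culture passed (KO over WT, 0.41, edgeR adjusted p = 0.0145), the single call of the 6 genes that the block moved. Leaving out single libraries gave 0.27 to 0.38 for the WT response of Zic2 (not past the threshold without replicate 3 of WT normal or replicate 4 of WT paused cells) and 0.0557 to 0.1404 for Utf1 in normal culture (0.14, edgeR adjusted p = 0.0449, without replicate 4 of WT normal cells). It gave −2.33 to −0.88 for the difference in responses of Fgf5 (−2.33, edgeR adjusted p = 0.0481, without replicate 4 of KO paused cells) and −4.69 to −3.32 for Fgf5 in paused culture. Outside these sets of replicates, the block and single libraries, no alternative moved a call of the 6 genes. The cause of these differences was not tested. Depth limits Fgf5, with 1.0 to 13.4 estimated counts in a KO library.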

Other observations

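The nearest tested protein-coding neighbours, by the distance between lower coordinates, are part of the medians within 5 Mb given above. Those of Otx2 and Pou3f1 are given here singly. Tmem260, 211.6 kb from Otx2, rose with pausing by 1.10 ± 0.09 on the log2 scale in KO cells (edgeR adjusted p = 1.72e-09) and by 0.67 ± 0.09 in WT cells (edgeR adjusted p = 2.6e-06), and its responses differed by 0.43 ± 0.12 (edgeR adjusted p = 0.00857). Utp11, a factor of ribosomal RNA processing 21.4 kb from Pou3f1, fell by 0.61 ± 0.04 in KO and by 0.66 ± 0.04 in WT cells, and the difference of 0.05 ± 0.06 did not pass (edgeR adjusted p = 0.523).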
